A study of Homo sapiens with 2 samples.

Results

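Genes of the DNA replication and repair machinery were chosen by name. The rule took symbols that open with the stem of a replication or repair family followed by a digit (MCM, RFC, ORC, GINS, RAD, XRCC, BRCA, RRM, PRIM, RPA, POLA, POLD or POLE), FANC followed by a letter, or 8 single symbols (CLSPN, PCNA, CDC6, CDC7, CDC45, CDT1, FEN1 and TYMS), and left out symbols with a hyphen. It found 49 of the 14884 named genes, each represented by its brightest probe set. The table of probe set names gave no member to the stems RFC, ORC, BRCA, PRIM, RPA, POLA, POLD and POLE, so the origin recognition complex, the replicative polymerases, the clamp loader and replication protein A were not analysed here. FANC gave 1 member, FANCD2OS, a gene beside a Fanconi anaemia gene that is matched by name only. MCM3AP, whose product acts in mRNA export, was also matched by name only, and RAD21 and RAD21L1 encode subunits of cohesin, the ring that holds sister chromatids together.

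The cells were UACC62, an established human melanoma line, grown in DMEM with serum. The control group was 1 array of cells given a non-targeting siRNA, and the other group was 1 array of cells given an siRNA against FOSL1, a FOS family subunit of the transcription factor AP-1. Both were harvested on day 3. The labels do not state how many siRNA sequences were used against FOSL1, and both groups come from a single line. With 1 array per group there was no replicate check, no test was run, and every difference describes these 2 arrays.

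Values are log2 intensities of probe sets, and a difference is the log2 value with FOSL1 siRNA minus that with control siRNA. A gene passed the filter on dim genes when its mean over both arrays reached 8.02, the median of named genes, which 7442 genes did. FOSL1 (Entrez gene 8061, probe set 16740630) had a difference of -1.53 (11.90 in the control array and 10.38 in the other), so the targeted gene was lower in the array labelled with its siRNA. The difference of a gene varied between its own probe sets with an SD of 0.169, taken over 213 genes that had 2 or more bright enough to pass, and this spread does not include variation between cultures. Of 14 named melanocyte markers 9 passed the filter, with 4 of the 9 above 0. SOX10 had 11.07 and 10.77, TYR 11.31 and 10.98, MITF 8.73 and 9.09 and PAX3 10.52 and 10.86, while PMEL was under the filter at 6.62 and 6.90. Of the markers of other cells, KRT18 alone of 8 named keratinocyte genes passed, LUM alone of 3 fibroblast genes, and CD68 alone of 4 leukocyte and endothelial genes. Their differences were -0.26, 0.48 and -0.63, and their part in the results was not tested. In whole-culture RNA, a different share of cells in S phase and a different RNA level per cell cannot be told apart.

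Before a cell copies its DNA, ORC, CDC6 and CDT1 load the ring of MCM2 to MCM7 on origins, which licenses them. The kinase CDC7 with its partner DBF4, together with MCM10, then turns the ring into the active helicase by adding CDC45 and the GINS complex, and polymerases follow with the sliding clamp PCNA. Breaks and stalled forks are repaired by homologous recombination, which copies the sister chromatid, or by end joining, which starts with the Ku proteins. Many of these genes are known targets of the E2F factors, which drive the entry into S phase, so their transcripts are commonly read as a measure of proliferation.

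Promoter sequence was examined because FOSL1 binds DNA as part of AP-1 and because E2F is the known regulator of many members. RefSeq windows of 300 bases (250 before and 50 after the annotated start, GRCh38.p14) were found for 41 of the 49 members and for 36 of the 43 that passed the filter, and the first listed window was used for the 11 members with several. The E2F motif was searched on both strands as TTTCCCGC, TTTGGCGC, TTTCGCGC or TTTGCCGC, counting overlapping matches. It was present in 15 of the 36 windows (41.7%), against 5.75% of 5996 windows of genes past the filter and 3.31% of all 35116 windows. When every listed window of a member was read, 16 had a match. The AP-1 motif TGACTCA, on either strand, was in 0 of the 36 windows, where 2.87% of windows of genes past the filter and 4.95% of all windows hold it. With shares this low, 0 of 36 windows is near the background. CCAAT was present in 22 of 36 (61.1%), against 36.6% of genes past the filter and 34.6% of all windows. For each motif only the exact letters given were searched, so variant sites, such as tgacgtca in the RAD51C sequence below, were not counted. These are counts of letters in a window and do not show whether a factor binds there.

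The sequences below run from 160 bases before to 20 bases after the start and are shown because they hold the E2F motif in different arrangements (MCM6, CDC6, PCNA, TYMS and CLSPN) or lack it in the printed stretch (RAD50, RAD51C and MCM9, which were past 1.2-fold in the values below). Capitals mark exact E2F motif matches, and the coordinates are those of GRCh38.p14. Near matches were not searched and stay in lower case, as in tttggcgg of CDC6 and tttcccgg of RAD50.
MCM6 (chr2:135876424-135876603, minus strand): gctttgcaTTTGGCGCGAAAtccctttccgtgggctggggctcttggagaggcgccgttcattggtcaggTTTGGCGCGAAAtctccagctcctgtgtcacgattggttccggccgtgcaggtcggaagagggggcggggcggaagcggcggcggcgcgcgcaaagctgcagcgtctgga
CDC6 (chr17:40287719-40287898, plus strand): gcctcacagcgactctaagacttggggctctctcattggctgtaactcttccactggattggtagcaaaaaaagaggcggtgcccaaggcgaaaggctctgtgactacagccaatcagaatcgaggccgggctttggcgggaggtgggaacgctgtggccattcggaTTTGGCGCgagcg
PCNA (chr20:5126603-5126782, minus strand): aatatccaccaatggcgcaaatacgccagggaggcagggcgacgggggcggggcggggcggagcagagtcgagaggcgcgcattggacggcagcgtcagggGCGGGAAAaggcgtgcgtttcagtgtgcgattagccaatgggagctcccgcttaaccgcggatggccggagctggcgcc
TYMS (chr18:657493-657672, plus strand): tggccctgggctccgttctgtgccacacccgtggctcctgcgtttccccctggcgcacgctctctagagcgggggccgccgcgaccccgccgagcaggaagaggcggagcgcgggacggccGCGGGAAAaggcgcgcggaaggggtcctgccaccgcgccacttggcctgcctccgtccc
CLSPN (chr1:35769959-35770138, minus strand): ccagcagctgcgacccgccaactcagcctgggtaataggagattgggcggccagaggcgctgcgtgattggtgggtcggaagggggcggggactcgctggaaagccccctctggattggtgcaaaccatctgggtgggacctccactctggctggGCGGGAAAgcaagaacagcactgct
RAD50 (chr5:132556817-132556996, plus strand): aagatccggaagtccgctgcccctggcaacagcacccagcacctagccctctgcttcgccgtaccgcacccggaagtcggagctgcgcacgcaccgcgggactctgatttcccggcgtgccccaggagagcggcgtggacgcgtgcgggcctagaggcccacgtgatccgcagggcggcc
RAD51C (chr17:58692413-58692592, plus strand): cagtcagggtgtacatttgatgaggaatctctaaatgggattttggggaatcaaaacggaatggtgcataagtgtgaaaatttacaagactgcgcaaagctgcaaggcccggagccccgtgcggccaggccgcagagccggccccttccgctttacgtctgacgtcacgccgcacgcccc
MCM9 (chr6:118935140-118935319, minus strand): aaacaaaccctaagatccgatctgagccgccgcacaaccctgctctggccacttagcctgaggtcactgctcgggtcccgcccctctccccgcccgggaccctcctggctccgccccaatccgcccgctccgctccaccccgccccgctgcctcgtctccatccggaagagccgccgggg

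In MCM6 a match to TTTGGCGC overlapped a match on the other strand at each of 2 places, which gives 4 matches. PCNA, TYMS and CLSPN each held GCGGGAAA, the reverse complement of TTTCCCGC, and in CLSPN it began 5 bases before the start and crossed it. In CDC6 the exact match lay just after the start. Among licensing genes 6 of 6 windows held the motif, among origin firing and helicase genes 4 of 7, and among homologous recombination genes 2 of 9 (MCM8 and XRCC2). The 15 members with a match had a median difference of 0.081, with 11 above 0, and the 21 members without one had 0.12, with 13 above 0. The members with and without the motif thus lay on both sides of 0.

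Of the 49 members, 43 passed the filter on dim genes, and in all 43 both arrays lay at or above it, the lowest value being 8.07. The members that did not pass were RAD51AP2, RAD51B, XRCC3, RAD9B, RAD21L1 and FANCD2OS. RAD52 lay just inside the filter, with 8.07 and 8.16, and XRCC3 just outside, with 7.90 in both arrays. The values in the 2 arrays lay close together for most members, as the plot of member values shows.

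**Figure D1:**
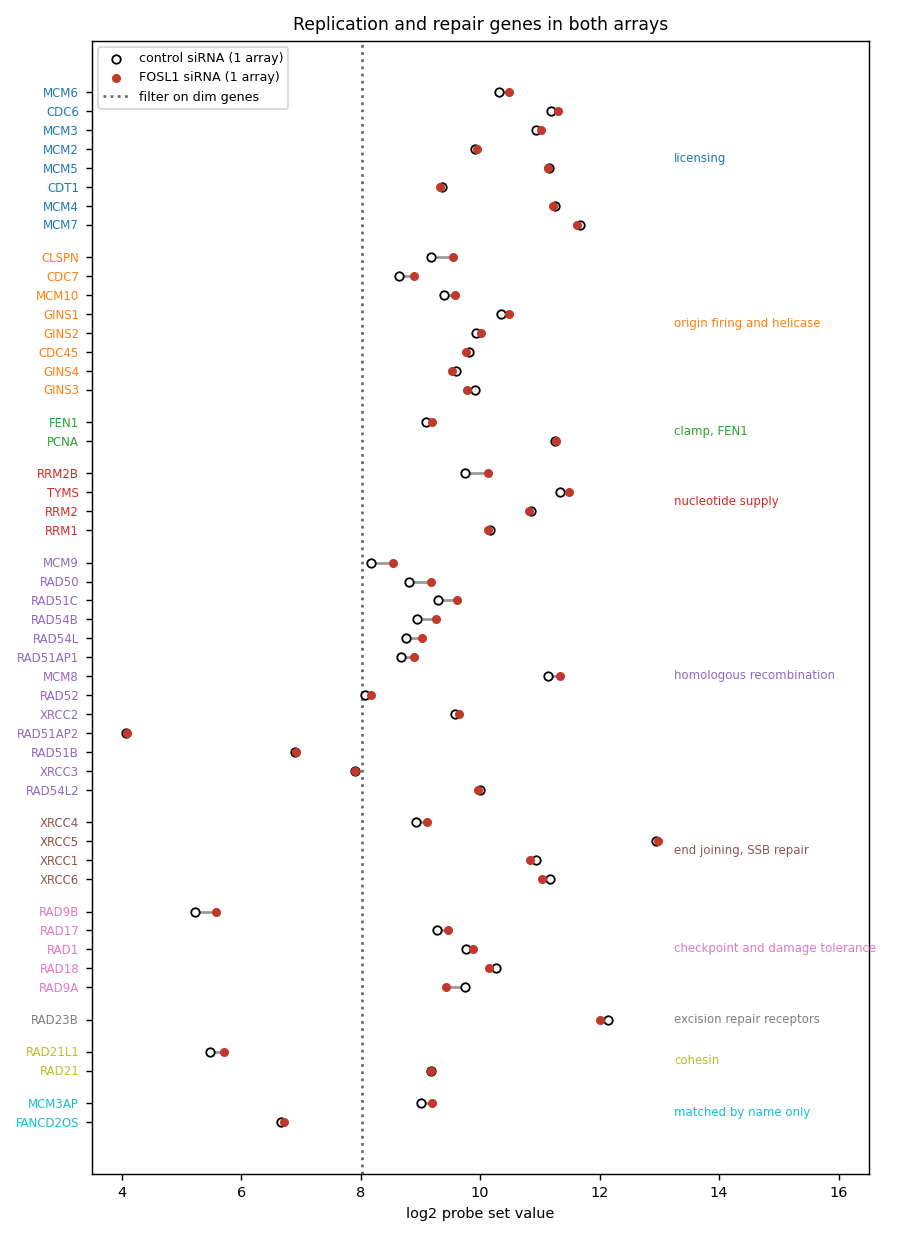
Log2 probe set value (x axis) of each of the 49 genes (y axis, grouped by role) with control siRNA (open circles, 1 array) and FOSL1 siRNA (red circles, 1 array); lines join both arrays and the dotted line is the filter at 8.02. Most pairs nearly coincide, and the widest gaps past the filter are those of RRM2B, MCM9, RAD50, CLSPN, RAD9A, RAD51C and RAD54B.

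Over the 43 members the median difference was 0.084, and over all 7442 genes it was -0.00077. Of the members, 28 lay above 0 (65.1%), beside 49.8% of all genes. At least 1.2-fold, a log2 difference of 0.26, was used as a size rule. By it 6 of 43 members (14.0%) were higher with FOSL1 siRNA, where 11.1% of all genes were, and 1 of 43 (2.33%) was lower, where 9.78% of all genes were. At 1.2-fold the share of higher members was near the background, and that of lower members was below it. At 1.1-fold, 17 of 43 members were higher, a larger share than the 25% of all genes. On the lower side 2 of 43 were past 1.1-fold, a smaller share than the 24.1% of all genes. At 1.5-fold, 0 members were higher and 0 lower, beside 1.13% and 0.766% of all genes. The members past 1.2-fold were RRM2B, MCM9, RAD50, CLSPN, RAD51C and RAD54B on the higher side and RAD9A on the lower side. RAD54B at 0.32 lay just inside the size rule, and RAD54L at 0.26, 1.19-fold, just outside.

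The roles differed in where their members lay. Homologous recombination genes had the highest median of the roles with at least 4 members past the filter, 0.24. Of these 10 genes 9 lay above 0 and 4 were at least 1.2-fold higher, beside 49.8% and 11.1% of all genes. With the filter raised to the 75th percentile, 3 of them were left with a median of 0.064, just under the 0.065 of nucleotide supply. Origin firing and helicase genes had a median of 0.12, nucleotide supply 0.065 and licensing 0.0079. Checkpoint and damage tolerance had -0.0014 and end joining with single-strand break repair -0.031. CLSPN, which also acts in the checkpoint, was counted with origin firing and was the only gene of that role past 1.2-fold. The medians depend on such choices of role and were not computed with CLSPN among the checkpoint genes.

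**Figure D2:**
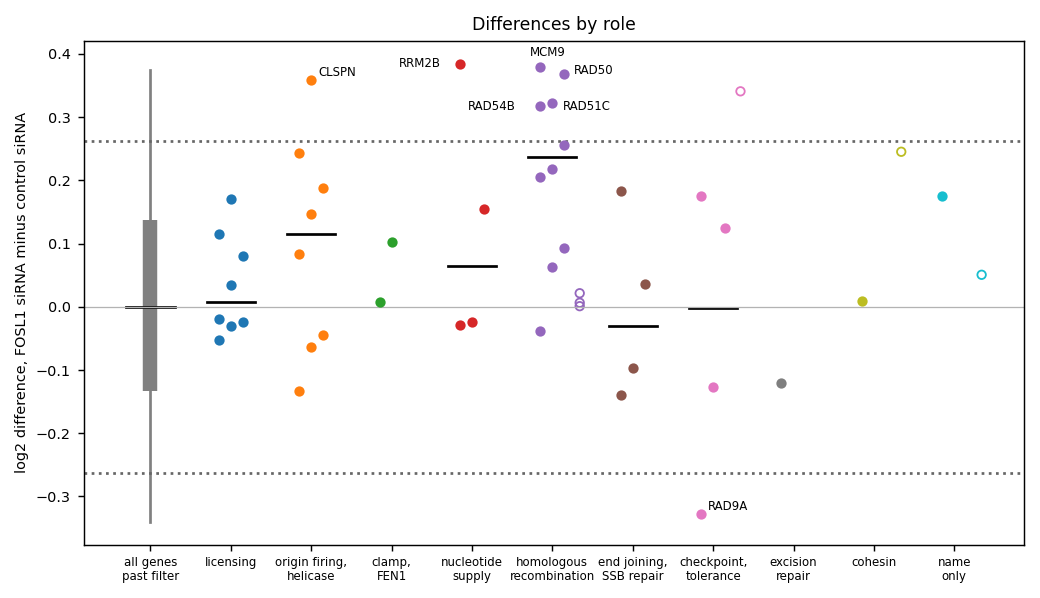
Log2 difference (y axis) of each gene by role (x axis); filled points passed the filter, open points did not, black bars are medians of roles with at least 4 genes past it, and dotted lines mark 1.2-fold. The grey bar spans the 25th to 75th percentiles of all 7442 genes past the filter and the thin grey line the 5th to 95th; 4 of 10 homologous recombination genes lie above the upper dotted line, and no licensing gene reaches either.

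Licensing genes differed little. CDC6, a loader of the MCM ring, had 11.18 in the control array and 11.29 after FOSL1 siRNA, a difference of 0.11. CDT1, its partner in loading, had 9.36 and 9.33, a difference of -0.024. Neither was past 1.2-fold, and with a trend on span removed CDT1 had 0.066, on the other side of 0.

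The 6 subunits of the MCM2 to MCM7 ring had a median difference of 0.0079, with 3 above 0 and 3 below, or 5 above and 1 below with a trend on span removed. MCM6 had the largest, 0.17, from 10.31 to 10.48. MCM3 went from 10.93 to 11.01 and MCM2 from 9.91 to 9.94, differences of 0.081 and 0.035. All of these subunits are bound in the same ring. MCM7 had 11.68 and 11.62, a difference of -0.052, and MCM4 had 11.25 and 11.22, a difference of -0.031; without the span trend these were 0.028 and 0.0058. MCM5 had 11.15 and 11.13, a difference of -0.019. The 11 subunits of the whole replicative helicase, with CDC45 and GINS, had a median of -0.019 with 5 above 0, and of 0.028 with 7 above 0 without the span trend. Of all 7442 genes past the filter, 49.8% lay above 0, and 53.0% without the span trend.

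Among origin firing genes the values lay further apart. CLSPN (Entrez gene 63967, probe set 16685165), which carries the checkpoint signal from ATR to CHEK1 at stalled forks and also supports fork speed, had 9.18 in the control array and 9.54 after FOSL1 siRNA, 1.28-fold higher. Its dimmer probe set had 4.36 and 5.26, far under the filter. CDC7, the kinase that fires licensed origins, had 8.64 and 8.89, a difference of 0.24. MCM10, which helps to open the helicase, had 9.40 and 9.58, a difference of 0.19.

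The GINS complex links the MCM ring to the leading-strand polymerase, and its 4 subunits had a median of 0.010. GINS1 had 10.34 and 10.49, a difference of 0.15, and GINS2 had 9.93 and 10.02, a difference of 0.084. GINS3 lay on the other side with 9.92 and 9.78, a difference of -0.13. GINS4 had -0.064 on its brighter probe set and -0.10 on its dimmer, which is under the filter. CDC45, the third component of the helicase, had 9.81 and 9.76, a difference of -0.044. Subunits of the same complex were thus on both sides of 0, none past 1.2-fold.

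PCNA, the sliding clamp and a common marker of proliferation, had 11.26 in both arrays, a difference of 0.0078, or -0.010 after quantile normalization over the named genes. FEN1, the nuclease that trims Okazaki fragments, had 9.10 and 9.20, a difference of 0.10.

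The enzymes of nucleotide supply did not lie together. RRM1 and RRM2 form the ribonucleotide reductase of S phase, and both were near 0: RRM1 had 10.16 and 10.13, and RRM2 had 10.85 and 10.82, differences of -0.029 and -0.024. RRM2B (Entrez gene 50484, probe set 17079808), the alternative small subunit that p53 induces and that supplies nucleotides outside S phase, had 9.75 and 10.13, 1.31-fold higher, the highest difference of any member that passed the filter. Ranked among the 7442 genes it was number 339 from the highest. TYMS, which makes thymidylate, had 11.34 and 11.49, a difference of 0.15.

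In homologous recombination, RAD50 (Entrez gene 10111, probe set 16989054), the long-armed subunit of the MRE11 complex that senses and tethers broken ends, had 8.81 with control siRNA and 9.18 with FOSL1 siRNA, 1.29-fold higher. The other subunits of that complex, which are outside the rule, had differences of 0.22 (MRE11, 8.40 and 8.61) and 0.051 (NBN, 10.96 and 11.01). All 3 were above 0, and of them RAD50 was past 1.2-fold.

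MCM9 (Entrez gene 254394, probe set 17023095) and MCM8 form a helicase that acts in recombination and not at origins. MCM9 had 8.17 and 8.55, 1.30-fold higher, and MCM8 had 11.14 and 11.34, a difference of 0.21. RAD51C (Entrez gene 5889, probe set 16836457), which acts in homologous recombination, had 9.29 and 9.61, 1.25-fold higher. XRCC2, of the same pathway, had 9.58 and 9.65, a difference of 0.064, and RAD51B and XRCC3 were under the filter with differences of 0.0064 and 0.00099.

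RAD54B (Entrez gene 25788, probe set 17079220) and RAD54L are motor proteins that move along DNA during recombination. RAD54B had 8.94 and 9.26, 1.25-fold higher, and RAD54L had 8.77 and 9.02, a difference of 0.26. RAD51AP1, also of this pathway, had 8.67 and 8.89, a difference of 0.22. RAD52, which anneals complementary strands, had 0.092. RAD54L2 is a related remodeler that was counted under this role. It was the 1 gene of the role past the filter that lay below 0, with 10.00 and 9.96, a difference of -0.039. RAD51AP2 was under the filter at 4.07 and 4.09.

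End joining and single-strand break repair genes lay on both sides. XRCC5 and XRCC6 encode the Ku proteins that bind broken ends, and they had 12.94 and 12.97 (0.035) and 11.17 and 11.03 (-0.14). The value of XRCC5 was -0.011 after quantile normalization and -0.0046 without the span trend. XRCC4, the scaffold of the ligase that seals the ends, had 8.93 and 9.11, a difference of 0.18. XRCC1, the scaffold of single-strand break repair, had 10.93 and 10.84, a difference of -0.097.

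RAD9A (Entrez gene 5883, probe set 16727802) was the member with the lowest difference and the only one past 1.2-fold on that side. It had 9.75 with control siRNA and 9.42 with FOSL1 siRNA, 1.26-fold lower, a difference of -0.33, or -0.24 after removal of a trend on span, which is inside 1.2-fold. It forms the ring-shaped checkpoint clamp with RAD1 and HUS1. RAD1 had 9.76 and 9.89, a difference of 0.12, and HUS1, outside the rule, had 10.41 and 10.20, a difference of -0.21. RAD17, which loads that clamp, had 9.28 and 9.46, a difference of 0.18. RAD18, the ubiquitin ligase that marks PCNA for bypass of lesions, had 10.27 and 10.14, a difference of -0.13. RAD9B, the germline relative of RAD9A, was under the filter with 5.23 and 5.57, a difference of 0.34.

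Of the remaining members, RAD23B, which stabilises the lesion receptor of nucleotide excision repair, had 12.13 and 12.01, a difference of -0.12. RAD21 had 9.17 and 9.18, a difference of 0.0091, and RAD21L1, the meiotic relative of RAD21, was under the filter with 0.25. MCM3AP had 9.02 and 9.19, a difference of 0.17, and FANCD2OS was under the filter with 0.051.

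Brightness moved with the differences of the members. Across the 43 members the Pearson correlation of the difference with the mean log2 value was -0.43 (Spearman -0.50), and across all 7442 genes it was 0.0052 (0.027). Genes of 1 array pair share their libraries and are not independent, so these are descriptions. The 15 members between the filter and the 75th percentile of named genes, 9.48, had a median difference of 0.22 with 14 above 0. Over all genes of that band the median was -0.0070. The 28 brighter members had a median of -0.0055 with 14 above 0. All genes past that percentile had a median of 0.0041, with 50.9% above 0. The median mean log2 value was 9.05 for homologous recombination and 11.05 for licensing, against 9.48 for all genes past the filter. Over all genes the SD of the difference was 0.254 between these filters and 0.192 above, and the part of brightness in the contrast between roles was not tested.

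**Figure D3:**
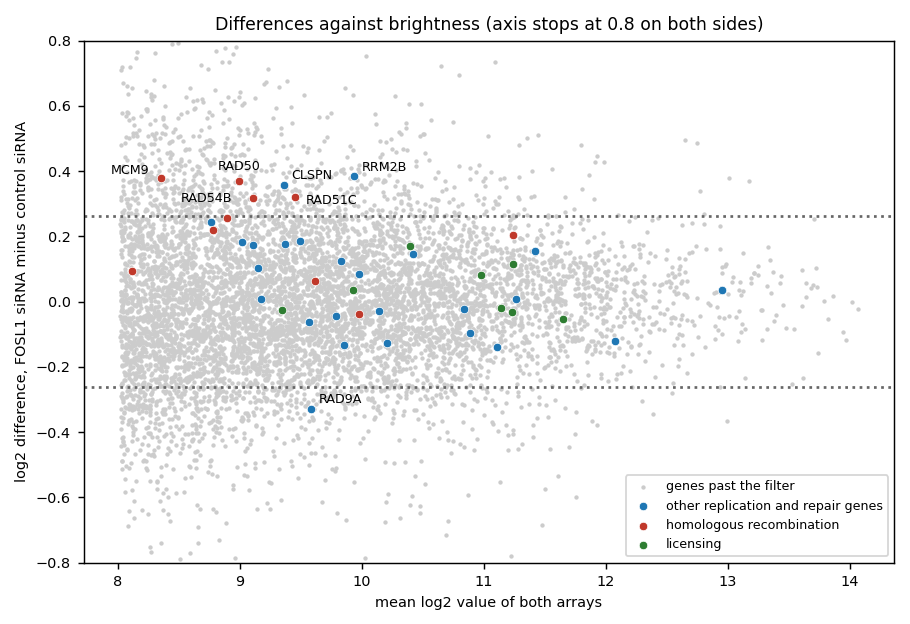
Log2 difference (y axis) against the mean log2 value of both arrays (x axis) for the 7442 genes past the filter (grey), the 10 homologous recombination genes (red), the 8 licensing genes (green) and the other members (blue); dotted lines mark 1.2-fold, and 25 genes lie beyond the axis limits of 0.8. The red points lie mostly to the left and above 0, the green points mostly to the right and near 0.

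Gene span also moved with the differences over all genes, with a Pearson correlation of 0.33 between the difference and the log10 span across 7442 genes (Spearman 0.34), and of 0.32 (0.28) across the 43 members. The median span was 63856.5 bases for homologous recombination, 18974 for licensing and 27446 for all genes past the filter. With a trend on span removed, the median was 0.25 for homologous recombination and 0.057 for licensing, where 7 of 8 genes then lay above 0. Over all 7442 genes the median was then 0.012 with 53.0% above 0, beside -0.00077 and 49.8% with the trend in place. The recombination median was 0.24 with the trend in place, and the part of span in the contrast between roles was not tested.

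Genes of the same pathways outside the rule were taken from lists written from general knowledge. The shares over all 7442 genes past the filter, for comparison, were 49.8% above 0, 11.1% at least 1.2-fold higher and 9.78% lower. Where the control value of a gene lay under the filter, it passed only through the array where it was high, so its place among the higher genes is partly set by the filter; this is said of each such gene below. Of 22 fork and S phase genes past the filter 17 (77.3%) were above 0, with a median of 0.043. By the size rule 2 of the 22 were higher, a share not above the 11.1% of all genes. These were DSCC1, part of an alternative clamp loader that acts in cohesion, with 8.48 and 9.22, 1.66-fold higher, and DBF4, the partner of CDC7, with 9.43 and 10.00, 1.48-fold higher. CDK2 and RECQL4 had the lowest differences of this list, -0.12 and -0.10.

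Of 14 checkpoint signalling genes 11 (78.6%) were above 0, beside 49.8% of all genes, with a median of 0.058. This list overlaps the fork and S phase list, and TIMELESS (0.065) is counted above 0 in both. At least 1.2-fold higher were 3 of 14, where 11.1% of all genes were. ATR, the kinase that CLSPN serves, had 9.39 and 9.77, 1.30-fold higher, and ETAA1, which activates ATR, had 7.98 and 8.45, 1.39-fold higher, and passed only through the higher array. ATRIP, the partner of ATR, had a difference of -0.23. CHEK1, the kinase that CLSPN helps to activate, had 9.87 and 9.92, a difference of 0.048. CDC25C, with 7.87 and 8.21, was the other gene past 1.2-fold and also passed only through the higher array.

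Of 14 strand break repair genes outside the rule 12 (85.7%) were above 0, beside 49.8% of all genes, with a median of 0.10. At least 1.2-fold higher were 4 of 14, where 11.1% of all genes were. BARD1, the partner of a recombination ubiquitin ligase, had 8.57 and 9.00, 1.34-fold higher, and EXO1, which resects broken ends, had 9.94 and 10.32, 1.30-fold higher. The others were TOP3A (0.26) and DCLRE1C (0.37), the latter with 7.97 in the control array and passed only through the higher one, and MUS81 (-0.19) and FAN1 (-0.029) lay below 0.

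In base, mismatch and nucleotide excision repair 8 of 17 genes lay above 0, and the median was -0.00075, or 0.043 without the span trend and 0.096 over the 7 genes at or above the 75th percentile. MSH3 was 1.21-fold higher and MPG 1.21-fold lower. Of 6 translesion synthesis genes 5 were above 0, with a median of 0.19, and POLI, POLK and POLN were 1.34-fold, 1.26-fold and 1.25-fold higher, POLN having passed only through the higher array (7.86 and 8.18). MAD2L2 was 1.23-fold lower. The median was 0.042 over the 2 genes at or above the 75th percentile, and 0.029 over the 5 that passed as a mean of probe sets.

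E2F and RB regulators had a median of 0.039, with 11 of 19 above 0, and a mean on the other side, -0.0020. E2F7, an E2F that represses the S phase genes, had 11.14 and 10.69, 1.37-fold lower, and E2F1, an activator, had 10.36 and 10.11, a difference of -0.25. CCND3 was 1.22-fold lower, at 7.97 with FOSL1 siRNA, under the filter, while LIN54 and RB1 were 1.25-fold and 1.23-fold higher. Over the 5996 genes past the filter that had a window, the 345 whose window held the E2F motif had a median of 0.043 and the others 0.0034.

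Mitosis genes had a median of 0.12, with 20 of 28 (71.4%) above 0, beside 49.8% of all genes. At least 1.2-fold higher were 6 of 28, where 11.1% of all genes were, led by PLK4 (1.55-fold) and NDC80 (1.32-fold). PLK4 had 7.76 and 8.40 and passed only through the higher array. PLK1 and AURKB lay below 0, with -0.25 and -0.20. None of the 28 was at least 1.2-fold lower, where 9.78% of all genes were.

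**Figure D4:**
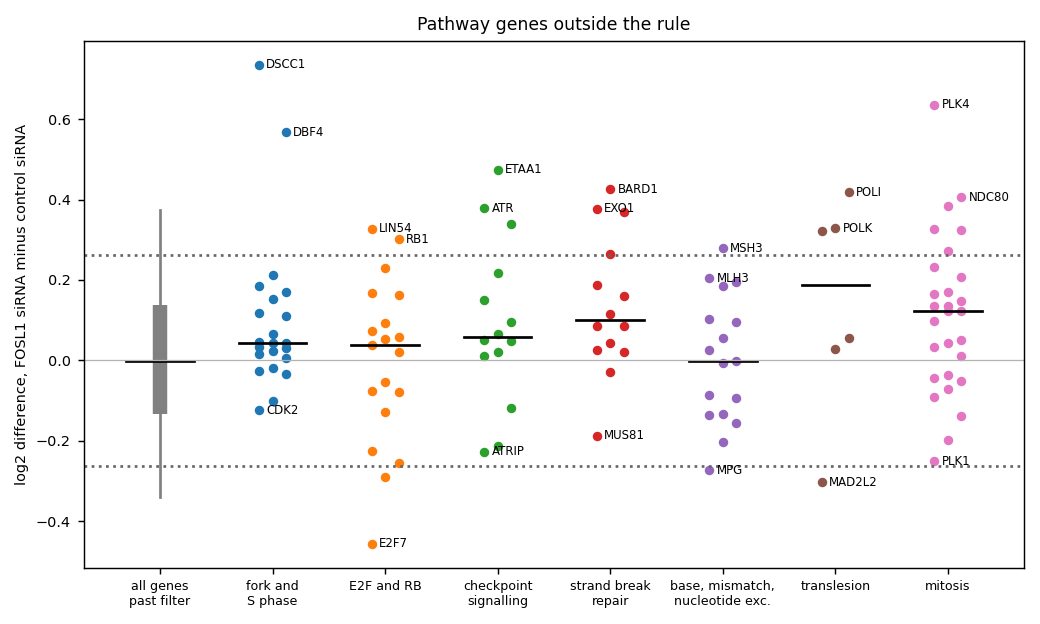
Log2 difference (y axis) of genes past the filter in 6 lists of replication and repair pathways outside the rule and in a list of mitosis genes (x axis); black bars are medians and dotted lines mark 1.2-fold. The grey bar spans the 25th to 75th percentiles of all 7442 genes and the thin line the 5th to 95th; DSCC1, PLK4 and DBF4 lie highest and E2F7 lowest.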

How the data were processed

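RNA of 2 cultures was amplified from 100 ng and labelled with biotin for an Affymetrix array, per the labels' protocols. The deposited values were taken as log2 probe set intensities from their range; the sources used here give no log base, background correction, normalization or build. Sorted values of both arrays differed by at most 0.0301, so a change in total RNA could not be seen. Of 53427 probe sets, 69.9% had no gene in the platform table used here, and the other 16098 each had 1 symbol.

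The probe set with the highest mean stood for a gene. Gene span came from RefSeq's table of GRCh38.p14 through Entrez IDs, for 14883 of 14884 genes. Trends were removed by lowess with a fraction of 0.3 (Python 3.11.15, statsmodels 0.14.6) over all named genes; scripts were tested on simulated data. Both values were given for members with the largest differences in each role and for members past 1.2-fold, and up to 2 genes per direction for other lists. Genes named beyond that were chosen after their values were seen. The members and lists were chosen with earlier results of these data known. Alternatives were median centring, quantile normalization, trends on mean log2 value and on span, other filters and thresholds, the mean of probe sets, list means, and members without cohesin or name-only genes.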

Additional observations from a re-analysis of the deposited data

How the results depend on the processing

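No paired analysis was possible because each group had 1 array. FOSL1 had values from -1.54 to -1.45 over the alternatives. When the filter was raised to the 75th percentile, the members' median was -0.0055, with 14 of 28 above 0 and 1 at least 1.2-fold higher. Of all genes past that filter, 50.9% were above 0 and 7.23% at least 1.2-fold higher. The medians were then 0.020 for origin firing, 0.064 for homologous recombination and -0.13 for checkpoint and damage tolerance, each over fewer genes. With no filter the checkpoint median was 0.12, since RAD9B entered. At 1.1-fold 17 of 43 members were higher, where 25% of all genes were, and 2 of 43 lower, where 24.1% were. At 1.5-fold 0 members were higher and 0 lower, where 1.13% and 0.766% of all genes were. With the span trend removed 0 of 43 members were at least 1.2-fold lower, where 7.12% of all genes were. The E2F and RB list had a mean of -0.0020, opposite to its median. The fork and S phase list had a mean of 0.10, and above the 75th percentile the median was 0.17 over 6 strand break repair genes and 0.096 over 7 genes of base, mismatch and nucleotide excision repair. Of the single members' values under alternatives, 244 moved by under the probe set SD and 1 by over it (CLSPN, 0.63 as a mean of probe sets). That mean takes in its dim probe set, at 4.36 and 5.26. As means of probe sets CLSPN and GINS4 fell under the filter. Of the 41 members left, 5 were at least 1.2-fold higher, where 11.0% of all genes were. Most alternatives change the values of single members little by construction.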

Other observations

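2 antisense genes share a member's name and were left out by the hyphen in their symbol. MCM3AP-AS1 had 8.01 in the control array and 7.94 in the other, a difference of -0.065, beside 0.17 for MCM3AP, and its mean was under the filter. RAD21-AS1 had 6.67 and 6.62, a difference of -0.051, beside 0.0091 for RAD21. CHEK2, the checkpoint kinase downstream of ATM, and TIPIN, which protects forks together with TIMELESS and CLSPN, were under the filter with differences of 0.71 (7.43 and 8.14) and 0.53 (7.62 and 8.15), while TIMELESS, past the filter, had 0.065. Among dim genes that carry a repair role, SFR1 and UBE2B had 0.57 and 0.68, and MGMT, which removes alkyl groups from guanine, had -0.39.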
